A study of Arabidopsis thaliana with 12 samples.

Results

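Chloroplasts and mitochondria keep small genomes of their own, but most proteins that transcribe, splice, edit and translate their RNA are encoded in the nucleus and imported. Pentatricopeptide repeat (PPR) proteins bind single organelle transcripts in a sequence-specific way and act in splicing, editing, end formation or translation. Members of the mTERF family, helical-repeat proteins named after a mitochondrial transcription termination factor of animals, act in organelle transcription, RNA maturation and ribosome assembly. In leaves these nuclear genes set how far the plastid genome can be expressed, including its photosystem, NDH complex and ribosome genes.

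Described here are 5 nuclear genes of Arabidopsis thaliana for such factors: OTP70 (AT4G25270), CRR21 (AT5G55740), AT3G18870, PAC (AT2G48120) and ATAB2 (AT3G08010). They were chosen by name and role from the 692 of 3439 array probes whose platform annotation names exactly 1 gene, and each was measured by 1 such probe and by no probe shared with other genes. The choice was made with the light against dark differences and the outlying columns of these same data known. The differences are therefore given as a description with their errors and without a p-value, and they support nothing beyond themselves.

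The samples were wild-type plants of ecotype Landsberg, all treated with 50 µM paraquat. The light group, with 6 columns of array values, had been back in light for 30 min when sampled, after 12 h of darkness. The dark group, also with 6 columns, was kept in darkness for 12 h. Paraquat diverts electrons from photosystem I to oxygen; the labels class it as a benzoquinone herbicide, whereas it is a bipyridinium compound. Every plant received it and no untreated group was analysed, so an effect of paraquat itself cannot be told apart from the shared background. The labels name no tissue, no plant age and no number of plants. The columns of each group are numbered 1 to 6. No label says that these came from separate plants, so any error given measures the spread between columns, which may be technical.

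Column totals of intensity ran from 3466 to 3509 in light and from 3467 to 3664 in dark. Of the 3409 probes tested over the whole table, 197 (5.78%) differed between light and dark (limma, Benjamini-Hochberg adjusted p under 0.05), 89 of them higher and 108 lower in light. On the values as deposited, 62 were higher and 117 lower. The fit with 197 probes did not pair same-numbered columns. The standard errors beside the differences below come from it unless the replicate block is named. A fit that blocks on the replicate number called 448 probes (13.1%). Among the 5 genes 1 passed, AT3G18870, which was lower in light; 3.17% of all probes passed the threshold in that direction. The same 1 gene passed with the replicate block. Since the genes were picked with this contrast known, nothing is read from that count. The normalised log2 differences were below 0 for 4 genes and above 0 for OTP70, with a median of -0.19, against a median of 0.0019 over all probes tested. Their median absolute difference was 0.20, against 0.17 over all probes.

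OTP70 is a PPR protein needed for splicing of the intron in plastid rpoC1, which encodes a subunit of the plastid RNA polymerase. Its intensity in light ran from 0.811 to 1.09 with a median of 0.943, against 0.642 to 0.977 with a median of 0.790 in dark. The groups overlapped: dark columns 3, 5 and 6 lay within the light range, and dark column 2 was the lowest of all. Means were 0.940 ± 0.0965 in light and 0.803 ± 0.126 in dark (SD, n = 6 each), and the normalised log2 difference was 0.30 ± 0.124 (SE), a ratio of 1.23. OTP70 was higher in light in 6 of 6 same-numbered comparisons, but not evenly. The log2 differences were 0.35, 0.60, 0.39 and 0.39 in numbers 1 to 4, against 0.036 and 0.032 in numbers 5 and 6. For numbers 5 and 6 the mean intensity was 0.953 in light and 0.938 in dark. The difference was 0.21 without numbers 1 and 2, 0.25 without 3 and 4, and 0.43 without 5 and 6.

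CRR21 is a PPR protein required for editing of a site in plastid ndhD, which encodes a subunit of the chloroplast NDH complex. Its intensity in light ran from 1.14 to 1.31 with a median of 1.25, against 1.16 to 1.42 with a median of 1.34 in dark. Most dark columns lay above all light columns, except dark column 5, which at 1.16 was lower than 5 of the 6 light columns. Means were 1.24 ± 0.0667 in light and 1.33 ± 0.0912 in dark (SD, n = 6 each). The normalised log2 difference was -0.053 ± 0.0639 (SE), smaller than its error. On deposited values CRR21 was lower in light in 5 of 6 numbers, and on normalised values in 4 of 6. The size of the difference followed the scaling: it was -0.094 on values as deposited and -0.046 with columns centred on their median, and -0.018 after centring within runs of 96 probe numbers. Leaving out 1 column gave -0.076 without dark column 5, the lowest value, and -0.028 without dark column 6, the highest.

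**Figure D1:**
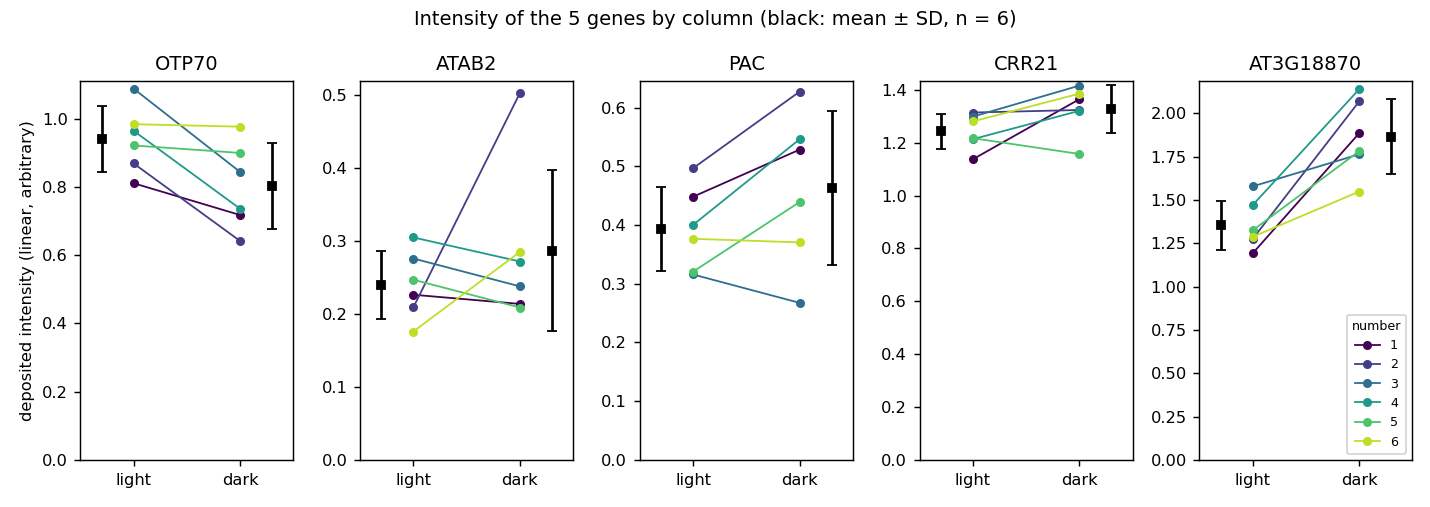
Deposited intensity (linear, arbitrary units, axes starting at 0) of the 5 genes, 1 panel each, with light at the left and dark at the right. Coloured points are single columns, lines join columns of the same number, and black squares with bars are means ± SD (n = 6). All 6 lines of AT3G18870 run higher in dark, OTP70 is lower in dark with nearly level lines for numbers 5 and 6, and dark column 2 stands alone for ATAB2 at 0.502.

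AT3G18870 belongs to the mTERF family; its own target is not described here. Its intensity in light ran from 1.19 to 1.58 with a median of 1.31, against 1.55 to 2.14 with a median of 1.83 in dark. Only 1 pair of columns made the groups overlap: light column 3, at 1.58, lay above dark column 6, at 1.55. Means were 1.35 ± 0.143 in light and 1.86 ± 0.217 in dark (SD, n = 6 each), and the normalised log2 difference was -0.45 ± 0.0856 (SE), a ratio of 0.732. It was lower in light in 6 of 6 numbers, with normalised log2 differences from -0.60 in number 2 to -0.20 in number 3. By sets of consecutive numbers the difference was -0.60 for numbers 1 and 2, -0.39 for 3 and 4, and -0.36 for 5 and 6. The gene stayed past the threshold when any 1 of the 12 columns was left out. It did not pass without number 1 or number 2 in both groups, without any set of consecutive numbers, or with consecutive numbers averaged or taken as a random block within groups, while its difference stayed between -0.49 and -0.38 in these settings. It passed where that random block was joined with the replicate block (236 probes called) or shared by both groups (451). The gene was chosen with this contrast known and the refits share columns, so the settings in which it passed add no support.

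PAC, for PALE CRESS, is a plastid protein needed for chloroplast development and for the maturation of plastid ribosomal RNA. Its intensity in light ran from 0.316 to 0.497 with a median of 0.388, against 0.267 to 0.627 with a median of 0.484 in dark. The ranges overlapped almost fully, since dark holds both the highest column, number 2, and the lowest, number 3. Means were 0.393 ± 0.0712 in light and 0.463 ± 0.131 in dark (SD, n = 6 each). The normalised log2 difference was -0.19 ± 0.196 (SE), about as large as its error in this fit, which did not pair the columns. PAC was lower in light in 4 of 6 numbers, with normalised log2 differences of -0.50 and -0.51 in numbers 4 and 5, and higher by 0.15 in number 3. Much of its spread belonged to the numbers rather than to either group: numbers 1 and 2 had means of 0.473 in light and 0.578 in dark, against 0.349 in light and 0.405 in dark for numbers 5 and 6. With the replicate block, the standard error of PAC was 0.105 and the difference did not pass. PAC was chosen with this contrast known, so nothing is read from that outcome. Leaving out 1 column moved the difference between -0.32, without dark column 3, and -0.11, without dark column 2. It was -0.11 with the lower quartile of intensity as offset and -0.075 after centring within runs of 96 probe numbers.

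ATAB2 is a chloroplast RNA-binding protein of the Tab2 family, which in the alga Chlamydomonas activates translation of a photosystem I subunit and in Arabidopsis acts in the light-dependent synthesis of photosystem proteins. Its intensity in light ran from 0.176 to 0.305 with a median of 0.236, against 0.209 to 0.502 with a median of 0.255 in dark. Dark column 2, at 0.502, stood apart from the other dark columns, which lay between 0.209 and 0.285 and inside the light range. Means were 0.240 ± 0.0464 in light and 0.286 ± 0.110 in dark (SD, n = 6 each), with a normalised log2 difference of -0.20 ± 0.200 (SE). The sign of this mean was set by few columns: ATAB2 was higher in light in 4 of 6 numbers, by 0.080 to 0.22 on the normalised log2 scale. It was lower in the other two, with differences of -1.09 in number 2 and -0.71 in number 6. Without dark column 2 the difference was -0.039, and without number 2 in both groups it was -0.021.

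**Figure D2:**
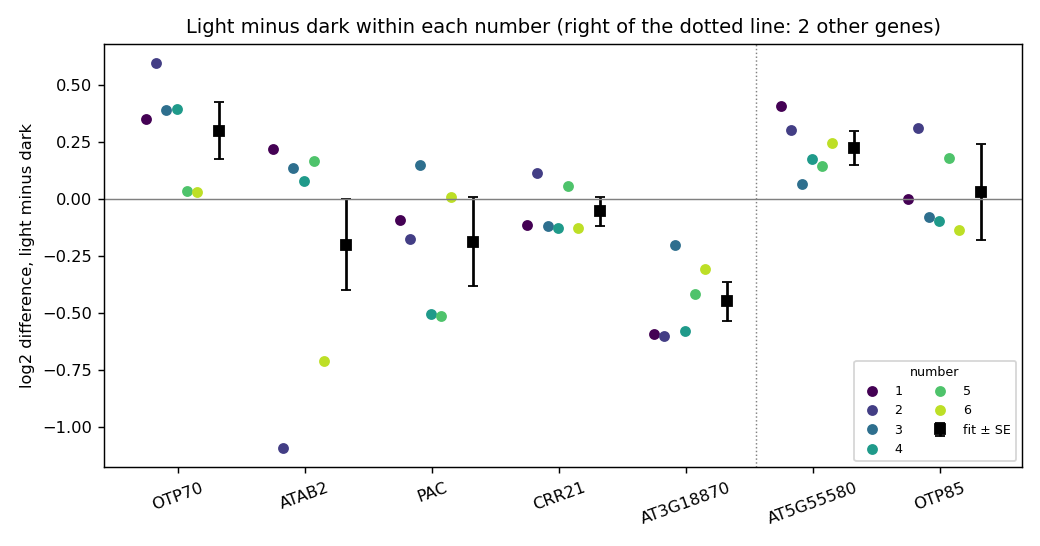
Normalised log2 difference of light minus dark for the 5 genes and, right of the dotted line, AT5G55580 and OTP85. Coloured points are the 6 numbers, and black squares with bars are the estimates over all 12 columns ± SE, from the fit without pairs. The points of AT3G18870 all lie below 0 and those of OTP70 all above it, while ATAB2 has 4 points above 0 and others at -1.09 and -0.71.

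The level of a probe on the array bears on how far its values can be read. Intensities of different probes do not compare transcript amounts, so each is set only against the distribution of probes. AT3G18870, CRR21 and OTP70 were brighter than 90.7%, 86.4% and 71.1% of all probes. PAC was brighter than 35.4%, and ATAB2, with a mean of 0.263 over the 12 columns, than 18.6%. ATAB2 lay below the lower quartile of 0.330, and a fit restricted to brighter probes did not include it.

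The spread between columns within groups ran nearly opposite to that order. The dimmer of the 5 genes spread more, except that CRR21 spread less than the brighter AT3G18870. On the normalised log2 scale the pooled within-group SD was 0.36 for ATAB2, 0.35 for PAC, 0.22 for OTP70 and 0.14 for AT3G18870. CRR21 had 0.091, a spread smaller than that of all but 2.05% of the 3178 probes without zeros, whose median was 0.24. ATAB2 and PAC spread more than 75.2% and 74.2% of these probes. The coefficient of variation of deposited intensity was 5.37% in light and 6.87% in dark for CRR21, against 19.4% in light and 38.4% in dark for ATAB2.

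**Figure D3:**
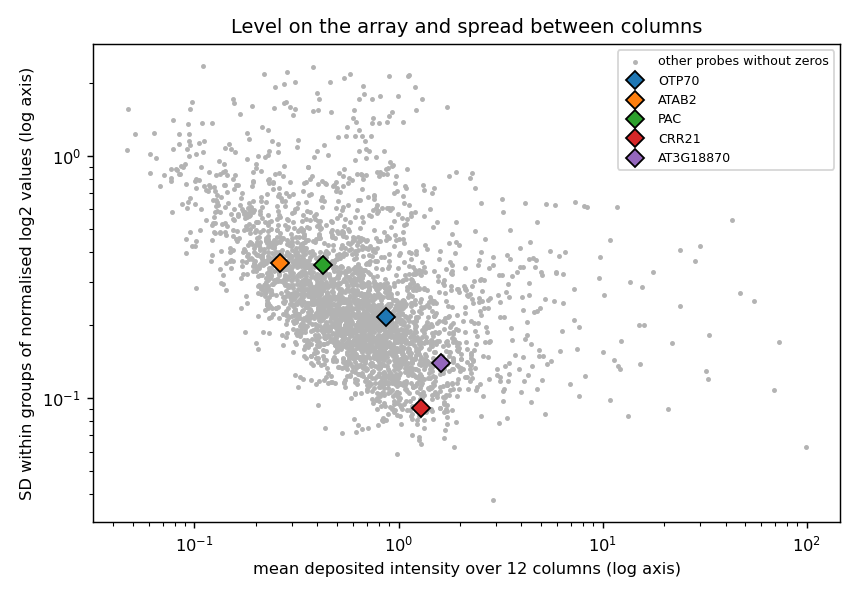
Mean deposited intensity over 12 columns (horizontal, log axis) against the pooled within-group SD of normalised log2 values (vertical, log axis) for the 3178 probes without zeros, with the 5 genes as diamonds. ATAB2 and PAC lie among the dimmer probes with SDs of 0.36 and 0.35, and CRR21 lies at the lower edge of the cloud at 0.091.

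Same-numbered light and dark columns deviated together for some of the genes. A coefficient that is 1 where both columns of each number deviate alike from their group means, and 0 where they are unrelated, was 0.71 for PAC, 0.47 for OTP70, 0.28 for CRR21, 0.26 for AT3G18870 and -0.20 for ATAB2. Its median over the 2554 probes above the lower quartile without zeros was 0.48. The standard error with the replicate block was 0.0896 for OTP70, 0.0724 for AT3G18870 and 0.0549 for CRR21, and for ATAB2 it was 0.207, no smaller than without the block.

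Further genes of organelle gene expression were sought with 5 lists holding 209 gene names, together with name keywords for the families. These names matched 2 single-gene probes outside the 5, AT5G55580 and OTP85. Many single-gene probes carry a bare locus with no descriptive name in the tables used, so family members among them were missed, and the lists say little about the pathway as a whole. Neither passed the adjusted threshold, against 5.78% of all probes, and 1 had an unadjusted p under 0.05 in limma, as did 683 of the 3409 probes. AT5G55580 encodes mTERF9, which acts in chloroplast ribosome assembly. Its intensity was 1.52 ± 0.173 in light and 1.32 ± 0.101 in dark (SD, n = 6 each; log2 0.22 ± 0.0729 SE, limma adjusted p = 0.102). It was higher in light in 6 of 6 numbers, by 0.066 to 0.41 on the log2 scale, and light ran from 1.35 to 1.80, against 1.19 to 1.43 in dark. AT5G55580 passed in 2 of 37 alternative settings, with limma adjusted p = 0.0301 and 0.031. Both settings were chosen after seeing the data, and they called 665 (19.5%) and 451 (13.2%) of all probes. AT5G55580 and AT3G18870 thus had differences of opposite sign, and the difference between them was not tested. OTP85, a PPR protein of ndhD editing like CRR21, had 0.338 ± 0.0768 in light and 0.337 ± 0.101 in dark (SD, n = 6 each; log2 0.031 ± 0.212 SE, limma adjusted p = 0.969). Its spread was mostly shared by the numbers, with a coefficient of 0.89.

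Likeness was measured as Pearson's r over the 12 columns of normalised log2 values, against 503 probes that name 1 gene, lie above the lower quartile and hold no zero. The columns share their numbers and their group, so r includes both, and it is given without a p-value. OTP70 was most like AT2G22890 (r = 0.92), AGL26 (0.88) and AT3G11150 (0.87), of which AT2G22890 had intensities of 3.26 ± 0.639 in light and 2.07 ± 0.601 in dark. AT3G18870 was most like AT1G63610 (0.88), Z-ISO (0.88) and AT1G31790 (0.86). Z-ISO, which isomerises zeta-carotene on the way to carotenoids, had 0.677 ± 0.0922 in light and 1.01 ± 0.109 in dark. ATAB2 was most like AT3G50180 (0.85), AT1G63610 (0.71) and AT5G42680 (0.69). Its own probe lay below the lower quartile. Dark column 2 of ATAB2 was at -1.07 on the normalised log2 scale, against -2.52 to -1.77 in its other columns. How far the r values of ATAB2 rest on that column was not tested. PAC was most like AT3G54210 (0.80), which encodes plastid ribosomal protein L17, then AT1G50390 (0.79) and AT1G22850 (0.77). CRR21 had no close match: its highest values were 0.65 for AT1G29700, 0.59 for AT1G50750 and 0.59 for AT5G53620.

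Among the 5 genes themselves the patterns were not alike. OTP70 ran against PAC (r = -0.66), AT3G18870 (-0.61) and ATAB2 (-0.43) over the 12 columns. The highest value was 0.43, between AT3G18870 and ATAB2. Between the PPR genes OTP70 and CRR21 it was 0.19.

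**Figure D4:**
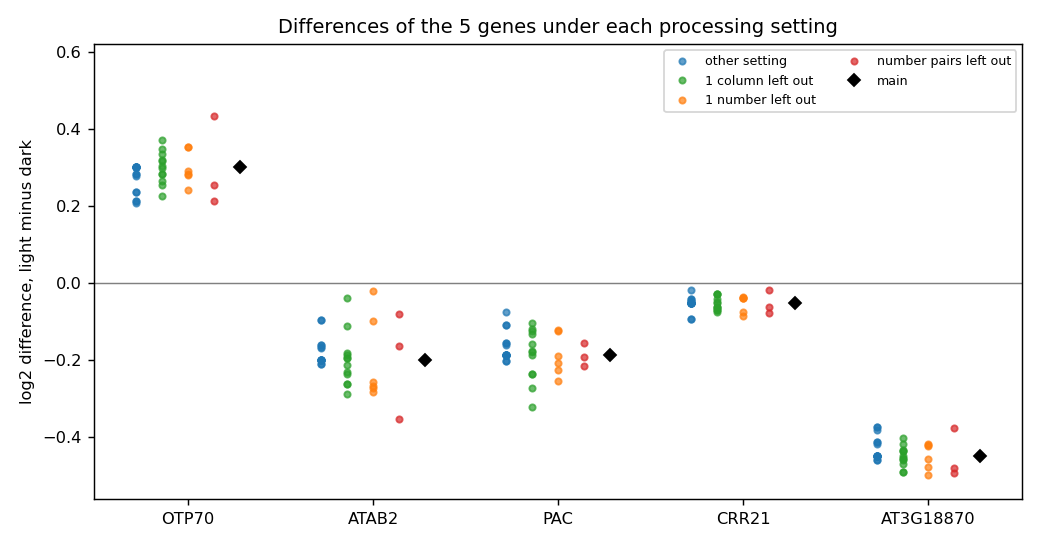
Normalised log2 difference of light minus dark for the 5 genes under each setting tried: other scalings, offsets and blocks (blue), 1 column left out (green), 1 number left out in both groups (orange), numbers left out by consecutive pairs (red), and the value reported (black). No gene crosses 0, but the blocks by themselves leave the difference unchanged by construction. ATAB2 reaches -0.021 without number 2, and AT3G18870 stays between -0.50 and -0.37.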

How the data were processed

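The authors deposited 1 table of linear array intensity values; no source used here gives its background treatment or scaling. Each column holds 129 to 148 exact zeros, and 11 of 12 reach a ceiling of 100. The number of arrays limits the precision. Names come from the platform annotation (it can be old), and loci from RefSeq (TAIR10.1, names and gene order only), which held 690 of the 692 single-gene probes. Columns were quantile-normalised with zeros kept at 0 and transformed as log2(value + 2.53e-05, the lowest positive value). The 3409 probes not at 0 throughout were fitted with limma 3.58.1 in R 4.3.3 (lmFit, eBayes, two-sided), which was checked on simulated data. The simulated columns were alike by shared number but not by consecutive numbers within a group, so the check does not cover that likeness. Log2 differences and standard errors are on the normalised log2 scale, and means ± SD are deposited intensities. Figures used Python 3.11.15 and matplotlib 3.10.9.

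The genes, lists and settings were chosen with earlier results of these data known. Named genes were the 5, the measured list genes, and the 3 most like each of the 5. Over 2554 probes, deviations from the group mean correlated by 0.66 to 0.79 between light and dark columns sharing a number, and all 12 columns matched their own number best. On this basis, from the values alone, same-numbered columns were compared as pairs. The main fit, with its count of 197 probes and the standard errors given beside the differences, did not use these pairs. Only the settings with the replicate block did. Within a group, these deviations correlated by 0.30 on average for numbers 1 with 2, 3 with 4 and 5 with 6, and by -0.32 for other numbers. Taking deviations from the group mean makes such correlations negative on average, also for unrelated columns. No columns were identical. If neighbouring numbers such as 1 and 2 repeat 1 sample, n = 6 overstates the samples. Other scalings, offsets, filters, blocks and left-out columns were tried.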

Additional observations from a re-analysis of the deposited data

Results flagged for a closer look

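In 2 of the 14 groups of 6 values of the 7 genes, 1 column stood apart from the other five by more than Dixon's 95% critical value. Chance gives about 1 in 20 groups, or 0.7 here, and over all probes without zeros the share was 5.93%. The 5 genes were chosen with the outlying columns known, so nothing is read from this count. ATAB2 had an intensity of 0.502 in dark column 2, against 0.209 to 0.285 in the other dark columns. The probes numbered 1 and 2 below that of ATAB2 were also high in dark column 2, at 1.61 and 1.35 times the median of the other dark columns, against 2.11 for ATAB2, while the probes numbered 1 and 2 above it were at 1.06 and 0.694. Within 5 probe numbers on either side the measured neighbours ran from 0.501 to 1.61. No source used here says whether probe numbers follow the array's layout, and the part of position in the result was not tested. Dark column 2 stood apart as the high column for 23 of the 3178 probes and as the low column for 30. CRR21 had an intensity of 1.16 in dark column 5, against 1.32 to 1.42 in the other dark columns. The probes numbered 1 and 2 below it were at 0.829 and 0.569 of the median of the other dark columns in that column, against 0.848 for CRR21, and the probe numbered 1 above it was at 0.996. The probe numbered 5 below it was at 0.748. Within 5 probe numbers on either side the measured neighbours of CRR21 thus ran from 0.569 to 0.996.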

How the results depend on the processing

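No difference of the 5 genes changed sign in the 37 alternatives (36 for ATAB2), and each moved by less than 1 within-group SD. The blocks, the averaging, the trend moderation and the probe filter by themselves leave the difference unchanged by construction. The SD was also larger in size than the difference for ATAB2 (0.36 against -0.20), PAC (0.35 against -0.19) and CRR21 (0.091 against -0.053), so that limit was wide for them. The settings that combine the replicate block with another scaling or offset, and the random block shared by both groups, were chosen after seeing the data. The count over all probes was 448 with the replicate block, and 42 with a random block for consecutive numbers within groups or 451 with that block shared by both groups. It was 432, 507 and 665 with the replicate block on values as deposited, on median-centred columns and with the lower quartile as offset. Averaging consecutive numbers gave 0, without and with a replicate block (335 and 618 at an unadjusted p under 0.05). The count was 73 without numbers 1 and 2, 0 without 3 and 4 (465), and 113 without 5 and 6; leaving out 1 column or 1 number gave 59 to 174, the lowest without number 4. Of the 5 genes, 0 passed with consecutive numbers averaged, with both a replicate block and averaging, with the random block within groups, and without any set of consecutive numbers; 0 to 1 passed with 1 column or number left out. With the replicate block and the lower quartile as offset 2 passed, OTP70 being added. In that setting and with the shared random block 1 of the 2 list genes passed, AT5G55580. The 5 genes were chosen with this contrast known, so nothing is read from how many of them passed. The difference of OTP85 was -0.032 without numbers 1 and 2, and ran from -0.096 to 0.13 with 1 column or number left out. The replicate block alone changed no call of the 7 genes. The dim ATAB2 probe limits what can be read of that gene. The causes were not tested.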

Other observations

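OTP70 lies 2 protein-coding genes from AT4G25290, annotated as a DNA photolyase, in the RefSeq gene order. AT4G25290 had intensities of 2.25 ± 0.346 in light and 1.28 ± 0.0596 in dark (SD, n = 6 each), a normalised log2 difference of 0.82. Over the numbers both genes had their larger differences in 1 to 4 and their smaller ones in 5 and 6: AT4G25290 had 0.91 to 1.07, then 0.48 and 0.44, beside 0.35 to 0.60, then 0.036 and 0.032 for OTP70. Over the 12 columns r between them was 0.62, below the 3 genes most like OTP70. This neighbour was singled out after its values were seen, and no test was made. Of the other measured genes within 3 places of the 5, AT3G08000, next to ATAB2, had a log2 difference of 0.026, against -0.20 for ATAB2, and AT2G48090 and AT2G48130, on either side of PAC, had 0.11 and 0.38, against -0.19 for PAC. Each of these neighbours had differences of both signs over the numbers. AT2G48130 was dim, with means of 0.305 in light and 0.238 in dark, below the lower quartile of 0.330. Its differences ran from -0.22 in number 2 to 1.18 in number 3.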
